A study of Mus musculus with 20 samples.

Results

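Serpins are a superfamily of protease inhibitors, and their genes were taken from the expression table as every row whose symbol is Serpin, a clade letter from a to i and a number. Of the 24054 genes listed, 63 matched, and 46 of these had 10 or more counts summed over the 20 libraries and are described here. The other 17 were Serpina1f, Serpina3j, Serpina4-ps1, Serpina5, Serpinb3a, Serpinb3b, Serpinb3c, Serpinb3d, Serpinb6d, Serpinb6e, Serpinb9c, Serpinb9d, Serpinb9e, Serpinb9f, Serpinb9g, Serpinb13 and Serpini2. Next to that limit, Serpina3a was kept with 15 counts and Serpini2 was left out with 7. Of the 46 kept members, 33 passed an expression filter applied to the whole table and were tested among 16193 genes, and 13 were too low to test.

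Whole lungs of female C57Bl6 mice were profiled by RNA sequencing in 4 groups of 5 libraries. Mice were either wild type or labelled Alox15 knockout, and each genotype was given saline or house dust mite (HDM) extract through the nose every day for 14 days. The sample titles call the saline groups PBS, while their treatment label reads saline. The labels give no age, no batch and no construct for the knockout, and call the 5 libraries of a group biological replicates without naming animals, so the p-values measure the spread between these libraries. The study's stated purpose was to compare HDM-challenged wild-type lungs with lungs of mice lacking ALOX15, an enzyme that oxygenates polyunsaturated fatty acids.

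Alox15 went against the genotype label. It read 0.825, 11.1, 5.16, 3.87 and 1.98 CPM in wild-type saline, 12.9, 19.8, 29.8, 22.7 and 7.92 CPM in wild-type HDM, 40.8, 39.1, 44.7, 38.4 and 41.2 CPM in knockout-labelled saline and 39.4, 43.5, 42.2, 45.5 and 35 CPM in knockout-labelled HDM (CPM, counts scaled to the depth of the library). Every knockout-labelled library lay above every wild-type library, and gene counts do not show which exons were read, so the groups are called knockout-labelled throughout. Library totals ran from 12573113 to 23305673 counts. The lung genes Sftpc, Scgb1a1 and Ager were abundant in all 4 groups: the 6 lung markers checked summed to a median of 28546 CPM in wild-type saline, 16014 CPM in wild-type HDM, 37078 CPM in knockout-labelled saline and 19256 CPM in knockout-labelled HDM. In whole lung, fewer cells of a type and less RNA per cell cannot be told apart.

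Most serpins inhibit serine proteases, and a few inhibit cysteine proteases. The protease cuts an exposed stretch of the serpin, the reactive centre loop, and is then trapped in a covalent complex, so the sequence of that loop sets which protease is caught. Clade a holds the antitrypsins (Serpina1) and antichymotrypsins (Serpina3), clade b the mostly intracellular serpins that guard cells against their own granule proteases, and clades c to g circulating or matrix inhibitors of clotting, plasminogen activation and complement. Loss of alpha-1 antitrypsin leaves neutrophil elastase unchecked in the lung and is a known cause of emphysema, and dust mite extract carries proteases of its own.

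RefSeq (mouse assembly GRCm38.p6) places 20 of the 46 kept genes on chromosome 12, where the Serpina1 copies and the Serpina3 genes each form a row of neighbours, with 9 on chromosome 1 and 8, all of clade b, on chromosome 13. The near-identical copies limit what can be said of single genes, since the authors' estimator divides reads that match several of them. In the GENCODE M21 transcripts, 17 of the 46 members had no 50-base stretch in common with another gene, 14 had under 90% unique stretches and 3 under 50%. Those 3 were Serpina1c with 25.8%, Serpina1a with 32.6% and Serpina1d with 49.1%. The coding sequences of the 5 Serpina1 copies were 96.3% to 98.5% identical to each other, and those of 6 Serpina3 genes (f, g, i, k, m and n) 79.8% to 91.6%.

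The stretch of 60 coding bases in which the Serpina1 copies differ most is shown because it holds the code for the reactive centre loop, the part that meets the protease. It is read 5′ to 3′ from the chromosome 12 genes' GENCODE M21 transcripts, at bases 1101 to 1160 of the coding sequence (1170 to 1229 in Serpina1a), and capitals mark the 18 positions that vary among the 5 copies.
Serpina1a: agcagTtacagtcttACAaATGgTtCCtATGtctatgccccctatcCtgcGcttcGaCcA
Serpina1b: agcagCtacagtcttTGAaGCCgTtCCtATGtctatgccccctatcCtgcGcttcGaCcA
Serpina1c: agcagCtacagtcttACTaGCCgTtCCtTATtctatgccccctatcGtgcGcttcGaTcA
Serpina1d: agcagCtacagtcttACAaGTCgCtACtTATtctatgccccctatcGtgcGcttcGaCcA
Serpina1e: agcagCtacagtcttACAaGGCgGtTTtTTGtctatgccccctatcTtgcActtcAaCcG
Within this window Serpina1c and Serpina1d differed at 5 bases, Serpina1a and Serpina1b at 6, and Serpina1e at 10 to 12 from each of the others.

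The Serpina3 genes are set side by side in the same way, because their levels moved differently while their sequences overlap. In this window of 60 coding bases (bases 84 to 143 of the coding sequence in Serpina3g, 690 to 749 in Serpina3m and Serpina3n, 693 to 752 in Serpina3k), capitals mark the 30 positions that vary among 6 Serpina3 genes.
Serpina3g: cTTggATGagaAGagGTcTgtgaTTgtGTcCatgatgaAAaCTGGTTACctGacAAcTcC
Serpina3k: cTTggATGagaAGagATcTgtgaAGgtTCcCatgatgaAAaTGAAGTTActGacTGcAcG
Serpina3m: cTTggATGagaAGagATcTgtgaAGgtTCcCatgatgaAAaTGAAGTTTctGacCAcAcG
Serpina3n: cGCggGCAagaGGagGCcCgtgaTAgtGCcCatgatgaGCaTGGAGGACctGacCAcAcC
Serpina3k and Serpina3m differed at 3 of the 60 bases here, and Serpina3k and Serpina3n at 21.

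Under saline the serpin transcripts of the lung were dominated by a few genes outside clade a. Divided by transcript length, Serping1 (C1 inhibitor, which blocks the C1 proteases of complement and the kallikrein of the kinin system) stood at 157 CPM per kb in wild-type saline, 110 in wild-type HDM, 188 in knockout-labelled saline and 141 in knockout-labelled HDM. Serpinh1 (HSP47, a chaperone of procollagen that inhibits no protease) stood at 96.3, 83.1, 88 and 82.2 CPM per kb in the same order, and Serpinb6a at 83.1, 69.1, 102 and 76.5. Serpina3n had the highest level per length in clade a, at 29.8, 64.4, 37.1 and 64 CPM per kb. The summed level of the 21 kept clade a genes had a median of 97.5 CPM (84.6 to 174) in wild-type saline, 251 (159 to 319) in wild-type HDM, 115 (101 to 135) in knockout-labelled saline and 279 (237 to 347) in knockout-labelled HDM, so its HDM and saline ranges did not overlap within knockout-labelled mice and did in wild type. The summed level of the 15 kept clade b genes overlapped between all 4 groups, with medians of 408, 419, 464 and 506 CPM.

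In wild-type mice serpins of the Serpina3 row were higher with HDM, together with Serpina1a, Serpinb2 and Serpind1, and Serping1 and Serpinb10 were lower. With edgeR's quasi-likelihood test and a Benjamini-Hochberg adjusted p under 0.05 over all genes tested, 9 of 33 serpins were higher, where 13.6% of all genes were, and 2 were lower, where 16.5% of all genes were. In clade a, 7 of the 16 genes tested were higher and none was lower, and in clade b 1 of 9 was higher and 1 lower. The members' median log2 fold change was 0.22, beside -0.02 over all genes. These counts cover only members above the filter, which a gene can pass through a single group.

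In knockout-labelled mice the same challenge was followed by rises of the same Serpina3 genes, except Serpina3m, and also by rises of Serpina1a, Serpina1b, Serpina1c, Serpina1d, Serpina3k, Serpina10 and Serpinc1, genes whose main source in the body is the liver. Here 15 of 33 serpins were higher, where 26.2% of all genes were, and 5 were lower, where 25.7% of all genes were. Clade a gave 11 of 16 higher and 1 lower, and clade b 1 of 9 higher and 3 lower. The members' median log2 fold change was 0.57, beside 0.02 over all genes. Serpina1c, Serpina1d and Serpina3k held at most 0.23, 1.04 and 0.064 CPM outside knockout-labelled HDM. They passed the expression filter through that group alone and had to be higher. Serpina1b held over 0.576 CPM elsewhere only in saline replicate 4 of each genotype. The count over all members, the clade a count and the members' median are therefore not read against the values over all genes. Serpinc1, Serpind1 and Serpini1, each the only gene tested in its clade, were also higher, and Serping1 was lower.

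**Figure D1:**
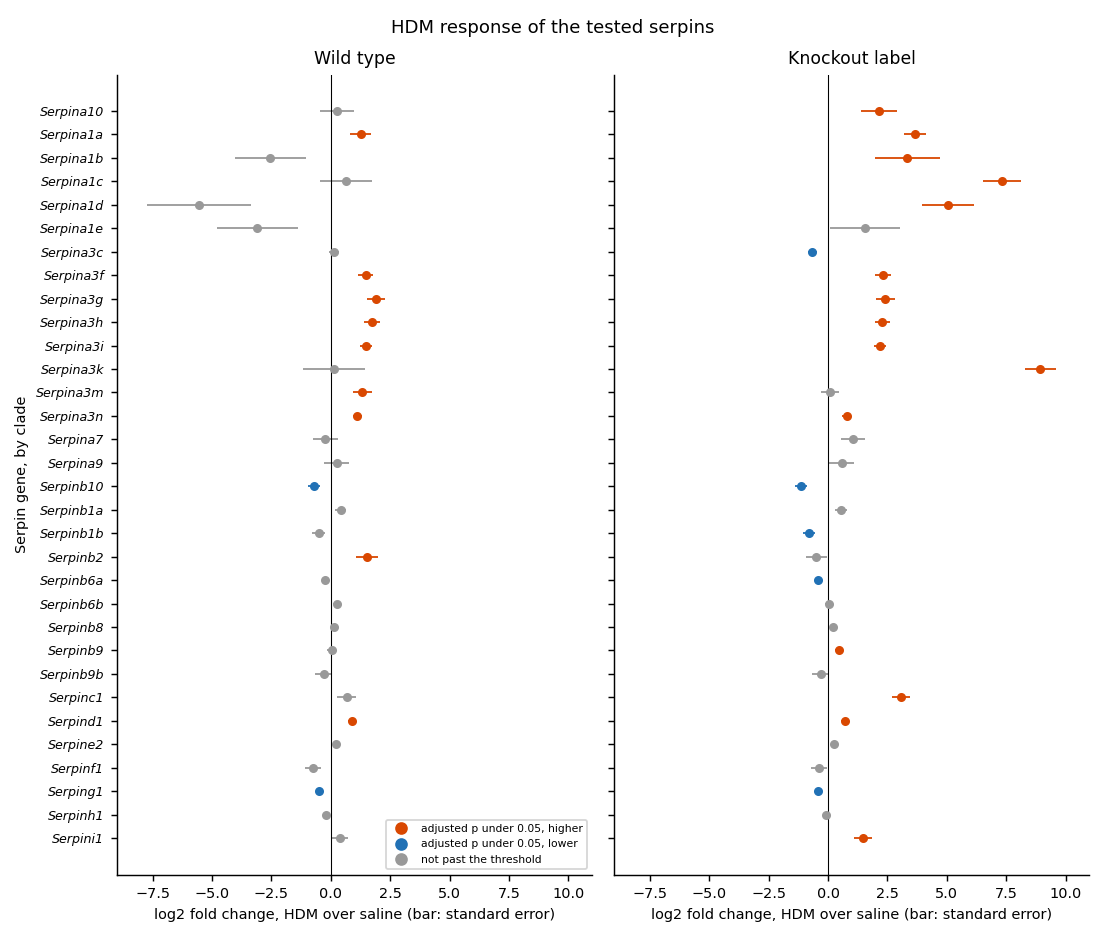
Log2 fold change of HDM over saline for 32 of the 33 tested serpins in wild-type (left) and knockout-labelled (right) lungs, with standard errors, ordered by clade, orange where higher and blue where lower at an adjusted p under 0.05. 9 genes were higher in wild type and 15 in knockout-labelled lungs, most of them in clade a.

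Serpina3n, a secreted antichymotrypsin that also inhibits granzyme B, was the most abundant clade a serpin. It read 44, 53.6, 69.7, 74.4 and 66 CPM in wild-type saline, 152, 199, 120.0, 114 and 82.1 CPM in wild-type HDM, 77.5, 80.0, 79.2, 78.1 and 67.6 CPM in knockout-labelled saline and 122, 120.0, 151, 167 and 101 CPM in knockout-labelled HDM. Every HDM library lay above every saline library of its genotype. The log2 fold change was 1.12 ± 0.19, adjusted p = 0.000312 in wild type and 0.79 ± 0.19, adjusted p = 0.00190 in knockout-labelled mice. One saline library of the knockout label, replicate 5 with 67.6 CPM, lay below the other 4, which held 77.5 to 80.0 CPM.

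Serpina3g (SPI2A), an intracellular member that inhibits lysosomal cysteine cathepsins, read 14.8, 9.02, 11, 39.5 and 7.87 CPM in wild-type saline, 74.9, 67.9, 71.6, 49.6 and 39.7 CPM in wild-type HDM, 9.19, 9.53, 15.9, 21.9 and 9.21 CPM in knockout-labelled saline and 58, 73.1, 73.9, 81.4 and 62.3 CPM in knockout-labelled HDM. The HDM libraries lay above the saline libraries in both genotypes, although wild-type saline replicate 4 reached 39.5 CPM, close to the lowest HDM library of that genotype at 39.7 CPM. The log2 fold change was 1.88 ± 0.38, adjusted p = 0.00129 in wild type, and 2.51 without that saline library. In knockout-labelled mice it was 2.41 ± 0.39, adjusted p = 5.40e-05.

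Serpina3f, a close neighbour of Serpina3g, read 6.54, 3.63, 5.1, 9.2 and 4.52 CPM in wild-type saline, 20.9, 18.1, 19.3, 9.0 and 12.7 CPM in wild-type HDM, 2.82, 3.05, 8.71, 5.39 and 3.51 CPM in knockout-labelled saline and 13.4, 27.5, 25, 31.9 and 20.4 CPM in knockout-labelled HDM. In wild type the groups touched, since saline replicate 4 exceeded HDM replicate 4, while in knockout-labelled mice they did not overlap. Its log2 fold change was 1.46 ± 0.33, adjusted p = 0.00277 in wild type and 2.33 ± 0.34, adjusted p = 1.62e-05 in knockout-labelled mice.

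Serpina3h and Serpina3i sit between Serpina3g and Serpina3k and were much less abundant. Serpina3h read 2.22, 1.19, 0.904, 0.874 and 0.565 CPM in wild-type saline, 4.08, 4.35, 4.9, 2.84 and 2.82 CPM in wild-type HDM, 0.862, 0.845, 0.308, 0.565 and 0.593 CPM in knockout-labelled saline and 3.79, 3.85, 3.16, 2.59 and 2.16 CPM in knockout-labelled HDM. Serpina3i read 1.71, 1.09, 0.798, 1.15 and 0.99 CPM in wild-type saline, 3.95, 3.58, 3.5, 2.84 and 2.03 CPM in wild-type HDM, 1.2, 0.658, 0.484, 0.869 and 0.729 CPM in knockout-labelled saline and 3.36, 3.9, 4.13, 3.42 and 3.13 CPM in knockout-labelled HDM. For both genes no HDM library overlapped the saline libraries of its genotype. Of their 50-base stretches, 75.6% were unique in Serpina3h and 84.6% in Serpina3i. These genes shared most with each other and next with the far more abundant Serpina3g. Whether the division of shared reads moved their levels was not tested. Serpina3h had a log2 fold change of 1.73 ± 0.32, adjusted p = 0.000515 in wild type and 2.29 ± 0.33, adjusted p = 1.35e-05 in knockout-labelled mice. For Serpina3i the values were 1.47 ± 0.24, adjusted p = 0.000179 and 2.18 ± 0.24, adjusted p = 8.11e-07.

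Serpina3m, a further gene of the row, had a call in wild type only. It read 0.825, 0.674, 1.12, 0.552 and 1.51 CPM in wild-type saline, 4.39, 2.75, 2.25, 1.5 and 0.99 CPM in wild-type HDM, 2.01, 1.97, 1.5, 1.26 and 1.28 CPM in knockout-labelled saline and 1.55, 1.85, 2.68, 1.71 and 0.701 CPM in knockout-labelled HDM. It was higher with HDM in wild type (log2 fold change 1.33 ± 0.38, adjusted p = 0.0133), with overlapping groups, and this call was lost without the libraries rich in the fat marker Adipoq (adjusted p = 0.0805). In knockout-labelled mice its value was 0.09 ± 0.37, adjusted p = 0.862. The difference between the genotypes' responses was not past the threshold for Serpina3m (adjusted p = 0.253).

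Serpina3c, at the near end of the row, held 8.19 to 11.6 CPM in wild-type saline, 8.37 to 14.7 in wild-type HDM, 7.0 to 13.1 in knockout-labelled saline and 4.25 to 8.62 in knockout-labelled HDM. It fell past the test in knockout-labelled mice (log2 fold change -0.66 ± 0.20, adjusted p = 0.00947, lost without knockout-labelled saline replicate 2), beside 0.14 ± 0.20, adjusted p = 0.631 in wild type. The test of the difference between the genotypes' responses gave an adjusted p of 0.165. The lowest members of the row, Serpina3a and Serpina3b, never exceeded 0.207 and 0.269 CPM in any library.

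**Figure D2:**
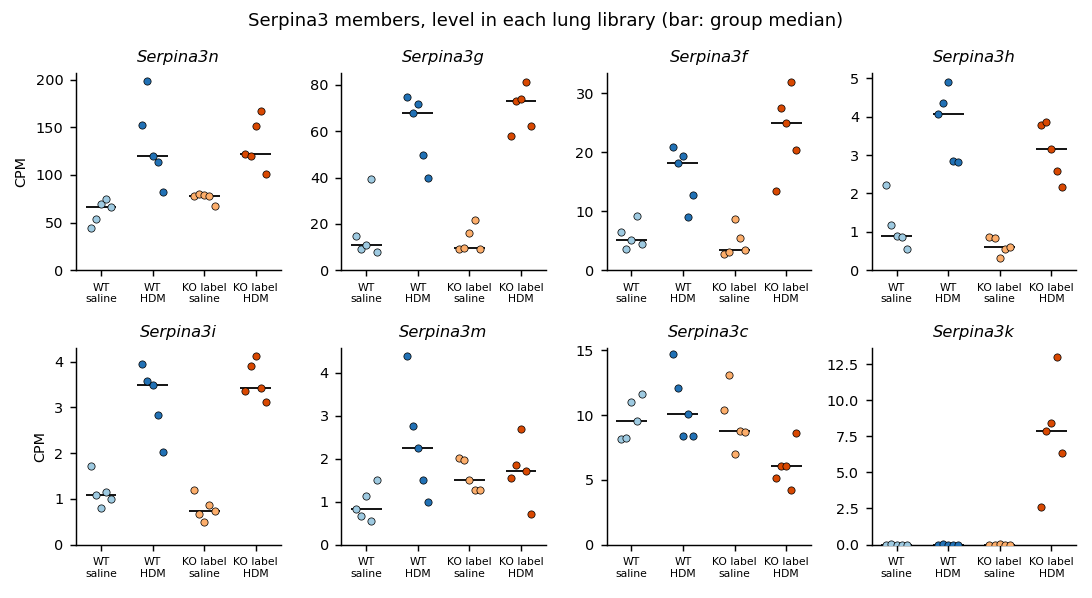
CPM of 8 Serpina3 genes in each of the 20 libraries, by group, with a bar at the group median. Serpina3n, Serpina3g, Serpina3h and Serpina3i show no overlap between HDM and saline in either genotype, and Serpina3k is above 0.1 CPM only in knockout-labelled HDM.

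Promoter windows of the Serpina3 genes that rose in both genotypes, all but Serpina3h, are shown because these genes moved together. Searching the 250 bases before each RefSeq start on both strands, TTCNNNGAA, letters of the kind bound by STAT factors, was found in 6 of the 37 kept members with an entry (Serpina3f, Serpina3g, Serpina3i, Serpina11, Serpinb2 and Serpinb6a), and in 8.13% of 27025 genes. The same ends with 4 bases between them were found in 3 (Serpina3i, Serpinb1b and Serpinb7), and in 6.76% of genes. CACGTG was found in none of the members and in 6.86% of genes, and TATAAA in 9 members and in 14.3% of genes. The windows below run 5′ to 3′ on assembly GRCm38.p6, and capitals mark matches to either spacing.
Serpina3f (chr12:104214294-104214543, + strand): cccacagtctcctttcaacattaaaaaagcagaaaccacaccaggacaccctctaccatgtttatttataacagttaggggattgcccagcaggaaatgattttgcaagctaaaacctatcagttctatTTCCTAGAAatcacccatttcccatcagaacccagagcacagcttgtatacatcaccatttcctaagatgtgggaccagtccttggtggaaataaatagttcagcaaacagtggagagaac
Serpina3g (chr12:104235897-104236146, + strand): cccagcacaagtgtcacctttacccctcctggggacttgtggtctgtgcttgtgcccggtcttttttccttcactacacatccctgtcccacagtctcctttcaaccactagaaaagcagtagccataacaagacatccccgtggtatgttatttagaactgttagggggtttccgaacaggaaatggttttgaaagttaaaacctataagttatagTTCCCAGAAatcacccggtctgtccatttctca
Serpina3i (chr12:104262872-104263121, + strand): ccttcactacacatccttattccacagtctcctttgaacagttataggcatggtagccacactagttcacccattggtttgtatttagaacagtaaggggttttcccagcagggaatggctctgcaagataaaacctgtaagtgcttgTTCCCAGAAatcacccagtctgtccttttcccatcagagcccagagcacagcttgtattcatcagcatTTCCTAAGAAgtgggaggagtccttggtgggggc
Serpina3n (chr12:104406458-104406707, + strand): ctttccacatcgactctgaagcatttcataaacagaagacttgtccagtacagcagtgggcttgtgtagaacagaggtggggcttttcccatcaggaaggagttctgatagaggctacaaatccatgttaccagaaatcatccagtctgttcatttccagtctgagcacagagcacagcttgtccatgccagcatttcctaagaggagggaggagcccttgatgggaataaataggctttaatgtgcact
The match ended 113 bases before the start in the Serpina3f window shown (202 before a second RefSeq start), 25 in Serpina3g and 94 in Serpina3i, which also held the wider spacing ending 25 bases before its start, without overlap. The Serpina3n window held neither spacing. The patterns are letters in a window and were not tested for binding.

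The Serpina1 genes code for alpha-1 antitrypsin, the main circulating inhibitor of neutrophil elastase. Summed over the 5 copies, which avoids the division of shared reads among them, their level had a median of 2.07 CPM (0.565 to 22.8) in wild-type saline, 3.78 (2.73 to 6.83) in wild-type HDM, 0.423 (0.220 to 9.13) in knockout-labelled saline and 27.2 (12.1 to 31.6) in knockout-labelled HDM. Every knockout-labelled HDM library lay above every wild-type HDM library, and both saline maxima came from a single library, replicate 4 of each genotype.

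Serpina1a read 1.84, 1.66, 2.07, 1.38 and 0.518 CPM in wild-type saline, 2.78, 3.77, 6.29, 2.69 and 2.28 CPM in wild-type HDM, 1.15, 0.423, 0.22, 1.22 and 0.228 CPM in knockout-labelled saline and 5.55, 8.14, 7.59, 7.06 and 13.2 CPM in knockout-labelled HDM. It was higher with HDM in both genotypes, with log2 fold changes of 1.25 ± 0.43, adjusted p = 0.0347 in wild type and 3.67 ± 0.46, adjusted p = 3.51e-06 in knockout-labelled mice, and without overlap in either. The wild-type call was lost in 5 fits that each left out 1 library (saline replicate 2, 4 or 5, HDM replicate 2 or 3; adjusted p = 0.0511 to 0.106), with the replicate number as a block (adjusted p = 0.0511) and without the Adipoq-rich libraries (adjusted p = 0.106). It was the copy that every library held, with 58.2% to 100% of the Serpina1 counts in the 8 saline libraries other than replicate 4 of each genotype.

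Serpina1b read 0, 0.104, 0, 8.28 and 0 CPM in wild-type saline, 0.124, 0.576, 0.233, 0.31 and 0.198 CPM in wild-type HDM, 0.0479, 0, 0, 2.39 and 0 CPM in knockout-labelled saline and 2.08, 5.07, 7.2, 5.46 and 5.44 CPM in knockout-labelled HDM. In wild type it gave no call (log2 fold change -2.55 ± 1.5, adjusted p = 0.213). The negative sign came from saline replicate 4 at 8.28 CPM. The other wild-type saline libraries held 0 to 0.104 CPM, below every wild-type HDM library, and Serpina1b was called in wild type without both saline libraries 4. In knockout-labelled mice the value was 3.33 ± 1.37, adjusted p = 0.0499, and 8.16 without knockout-labelled saline replicate 4, while leaving out any one of the 9 other libraries of that comparison ended the call. DESeq2 (adjusted p = 0.0951) and upper quartile factors (adjusted p = 0.0501) also gave none.

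Serpina1c read 0, 0, 0, 0.23 and 0 CPM in wild-type saline, 0, 0.064, 0.0777, 0.155 and 0.099 CPM in wild-type HDM, 0, 0, 0, 0.13 and 0 CPM in knockout-labelled saline and 1.81, 5.55, 5.98, 9.15 and 4.31 CPM in knockout-labelled HDM. Knockout-labelled HDM held 517 counts and knockout-labelled saline 3, a ratio of 196 (95% counting interval 66.7 to 954). All 3 saline counts came from replicate 4, and without that library the log2 fold change was 9.70 in place of 7.32. Against wild-type HDM the log2 fold change was 5.92 ± 0.73, adjusted p = 6.15e-05, again without overlap. Serpina1c passed the expression filter through knockout-labelled HDM alone, so it had to be higher there, and these tests add nothing to its values.

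Serpina1d read 0, 1.04, 0, 0.414 and 0 CPM in wild-type saline, 0, 0, 0, 0 and 0 CPM in wild-type HDM, 0, 0, 0, 0.435 and 0 CPM in knockout-labelled saline and 1.07, 3.75, 4.13, 3.75 and 3.13 CPM in knockout-labelled HDM. Wild-type HDM held 0 counts in its 5 libraries, and knockout-labelled HDM held 308, which is at least 89.6-fold higher when 3 counts are taken as the limit for a group at 0. The edgeR test gave an adjusted p of 0.00569 for that difference and a log2 fold change of 5.04 ± 1.10, adjusted p = 0.00137 for HDM over saline in knockout-labelled mice, or 8.94 without saline replicate 4. Serpina1d too passed the expression filter through knockout-labelled HDM alone and had to be higher there, so these tests add nothing to its values.

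Serpina1e held 12.5 CPM in wild-type saline replicate 4 and 4.96 CPM in knockout-labelled saline replicate 4, and at most 0.0518 CPM in every other saline library. In HDM it held 0.128 to 0.621 CPM in wild type and 1.08 to 6.17 CPM in knockout-labelled mice. No comparison of Serpina1e was past the test (adjusted p = 0.184 and 0.397 for HDM in wild type and knockout-labelled mice). In knockout-labelled mice it was called without saline replicate 4, by limma voom and with the replicate number as a block, and in wild type without both saline libraries 4.

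The mix of copies differed between the libraries that held most Serpina1 RNA. In saline replicates 4, Serpina1e took 54.8% (wild type) and 54.3% (knockout label) of the 5 copies' counts, Serpina1b 36.3% and 26.2%, and Serpina1c 1.01% and 1.43%. In the 5 knockout-labelled HDM libraries Serpina1e took 3.97% to 19.5%, Serpina1b 17.3% to 25.8% and Serpina1c 15% to 29%. Serpina3k was not counted in either of those saline libraries, and it was in all 5 knockout-labelled HDM libraries. These shares rest on reads that RSEM assigned among similar copies, and whether that assignment moved them was not tested.

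**Figure D3:**
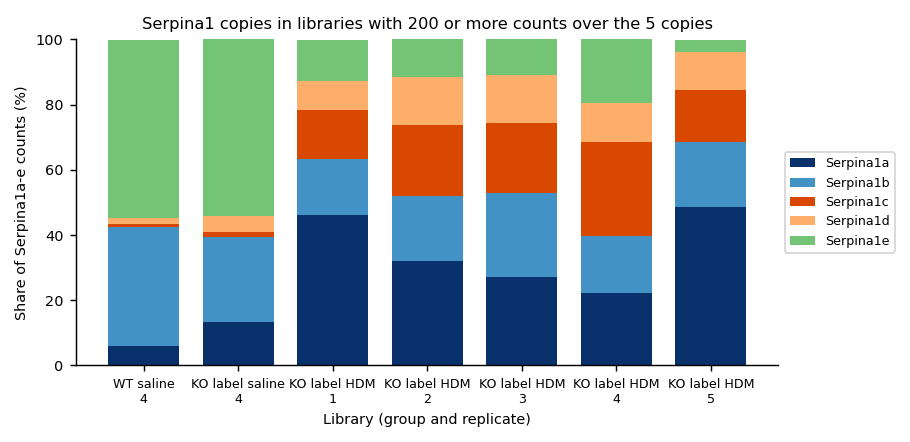
Share of the counts of each Serpina1 copy in the 7 libraries with at least 200 counts over the 5 copies, as stacked bars for each library. Serpina1e takes over 50% in both saline libraries shown and under 20% in the 5 knockout-labelled HDM libraries.

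Serpina3k, a hepatic member that binds tissue kallikrein, read 0, 0.0518, 0, 0 and 0 CPM in wild-type saline, 0, 0.064, 0, 0 and 0 CPM in wild-type HDM, 0, 0, 0.044, 0 and 0 CPM in knockout-labelled saline and 2.62, 7.84, 8.41, 13 and 6.31 CPM in knockout-labelled HDM. Only 1 count was found in each of the other 3 groups, in wild-type saline replicate 2, wild-type HDM replicate 2 and knockout-labelled saline replicate 3. Knockout-labelled HDM held 735 counts, a ratio of 836 to its saline group (95% counting interval 150 to 33076) and of 641 to wild-type HDM (115 to 25365).

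Serpinc1 (antithrombin, the main plasma inhibitor of thrombin and factor Xa) read 0.571, 0.311, 0.372, 0.69 and 0.33 CPM in wild-type saline, 1.05, 0.448, 1.32, 0.569 and 0.297 CPM in wild-type HDM, 0.335, 0.329, 0.264, 0.435 and 0.0912 CPM in knockout-labelled saline and 1.65, 2.09, 3.21, 3.03 and 2.48 CPM in knockout-labelled HDM. Knockout-labelled HDM lay above all 15 other libraries. The log2 fold change was 3.07 ± 0.39, adjusted p = 4.02e-06 for HDM over saline in knockout-labelled mice, 0.66 ± 0.40, adjusted p = 0.228 in wild type, and 1.78 ± 0.37, adjusted p = 0.00579 between the genotype labels under HDM.

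Serpina10 (the protein Z-dependent inhibitor of factor Xa) read 0.825, 0.518, 0.372, 7.64 and 0.33 CPM in wild-type saline, 3.65, 2.43, 1.4, 2.43 and 1.78 CPM in wild-type HDM, 0.527, 0.423, 0.44, 2.35 and 0.365 CPM in knockout-labelled saline and 5.28, 4.04, 2.72, 3.53 and 2.8 CPM in knockout-labelled HDM. It gave a call in knockout-labelled mice (log2 fold change 2.15 ± 0.75, adjusted p = 0.0225), which was lost without saline replicate 2, 3 or 5 or HDM replicate 1, and was 3.09 without saline replicate 4. In wild type it gave none (0.25 ± 0.72, adjusted p = 0.824). There saline replicate 4 held 7.64 CPM and the other 4 saline libraries 0.330 to 0.825 CPM, while all 5 HDM libraries held 1.40 CPM or more, and without that library Serpina10 was called in wild type too.

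Other hepatic serpins were too low to test. Serpina6 (corticosteroid-binding globulin) summed to 48 counts in knockout-labelled HDM and 3 in wild-type HDM, a ratio of 14 (95% counting interval 4.5 to 70.1). Under saline it summed to 19 counts in knockout-labelled and 1 in wild-type lungs, a ratio of 16.8 (2.66 to 696). Those saline groups did not overlap, at 0.0939 to 0.228 CPM in knockout-labelled and 0 to 0.0471 CPM in wild-type lungs. Both intervals cover counting error only. With no filter beyond 10 summed counts, edgeR called Serpina6 for HDM in knockout-labelled mice and between the labels under HDM. The same fit called no serpin between the labels under saline. Serpinf2 (alpha-2 antiplasmin, which inhibits plasmin) held 0.374, 0.78, 1.12, 1.38 and 0.701 CPM in knockout-labelled HDM, where its range in the other 15 libraries was 0.0635 to 0.440 CPM. The fit with no filter beyond 10 summed counts called Serpinf2 for HDM in knockout-labelled mice and between the labels under HDM.

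Other liver transcripts moved with these serpins. Albumin (Alb) read 20.1, 56.2, 76.4, 63.3 and 53.9 CPM in the knockout-labelled HDM libraries and at most 1.10 CPM in the other 15, with the lowest value in the library (replicate 1) that was also lowest for Serpina1a, Serpina1b, Serpina1c, Serpina1d, Serpina3k and Serpinc1. Serpina10 did not follow that order and was highest in replicate 1, and Serpina1e was lowest in replicate 5. Of the 26 genes of a liver list, 24 were tested, and 18 were higher and 0 lower with HDM in knockout-labelled mice. Over all genes 26.2% were higher and 25.7% lower there. The list's defining genes Fgb, Cyp3a11 and Cyp2c29 had 0 counts in all 15 libraries of the other groups, and Fgb held 0.961 to 3.02 CPM in knockout-labelled HDM. Such genes can pass the expression filter only through that group and then have to be higher, so the list's count is not read against those shares. The list's summed level, in which Cyp2e1 alone gave 119 and 188 CPM in the Adipoq-rich wild-type HDM libraries 2 and 4 and 287 CPM in knockout-labelled HDM 5, was 42.4 to 94.4 CPM in wild-type saline, 36.0 to 235 in wild-type HDM, 43.2 to 88.7 in knockout-labelled saline and 91.0 to 453 in knockout-labelled HDM. All 5 libraries of that group carried these transcripts, so no comparison could be made without them, and the part of liver RNA in the serpin differences was not tested.

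**Figure D4:**
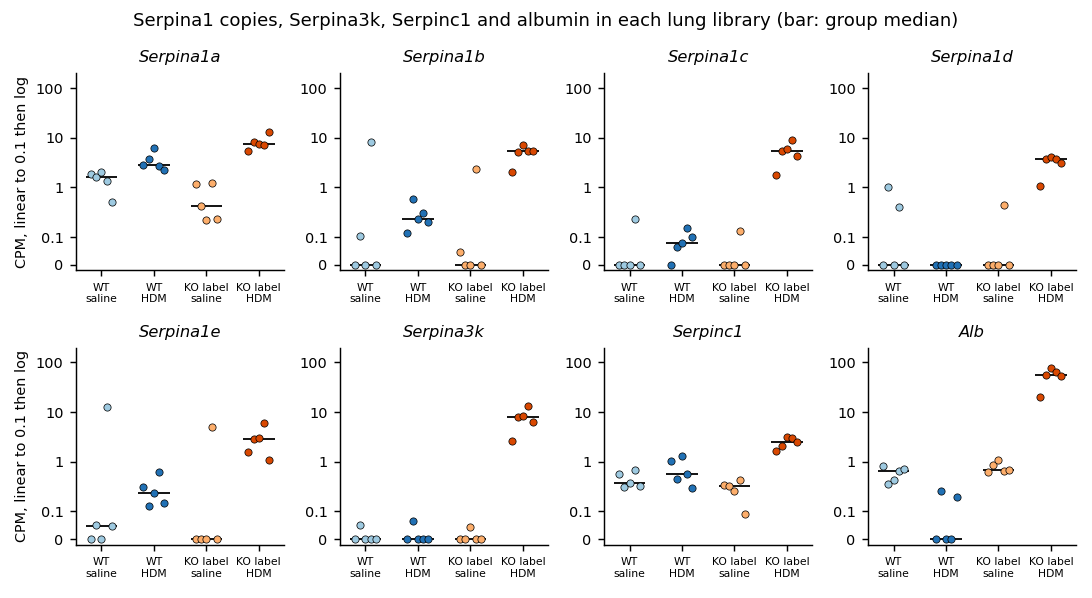
CPM of the 5 Serpina1 copies, Serpina3k, Serpinc1 and albumin (Alb) in each library, on an axis that is linear up to 0.1 CPM and logarithmic above, with group medians as bars. Albumin and Serpina3k are high in the 5 knockout-labelled HDM libraries only, and single saline libraries stand out for Serpina1b and Serpina1e.

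The remaining clade a genes showed no call in the main fit. Serpina7 (thyroxine-binding globulin) held 0.0957 to 0.825 CPM over all libraries. Serpina9, a serpin of germinal centre B cells, held 2.29 to 13.0 CPM and was highest in knockout-labelled HDM replicate 5. Serpina11 and Serpina12 (vaspin, an adipokine) were too low to test, although Serpina11 summed to 27 counts in wild-type HDM and 2 in wild-type saline, a ratio of 15.5 (95% counting interval 3.9 to 135). With no filter beyond 10 summed counts Serpina11 was called for HDM in both genotypes, although the groups overlapped.

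Among the circulating and matrix inhibitors outside clade a, Serping1 fell with HDM and Serpind1 rose, in both genotypes. Serping1 read 236, 245, 335, 269 and 298 CPM in wild-type saline, 217, 222, 143, 169 and 225 CPM in wild-type HDM, 318, 334, 355, 308 and 342 CPM in knockout-labelled saline and 202, 284, 278, 286 and 194 CPM in knockout-labelled HDM. No HDM library reached the saline range of its genotype. The log2 fold change was -0.50 ± 0.14, adjusted p = 0.0104 in wild type and -0.41 ± 0.14, adjusted p = 0.0172 in knockout-labelled mice, and the latter call was lost without saline replicate 3 or 5, HDM replicate 5 or the Adipoq-rich libraries.

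Serpind1 (heparin cofactor II, an inhibitor of thrombin) read 4.51, 3.89, 3.4, 4.19 and 4.1 CPM in wild-type saline, 10.4, 5.37, 7.23, 6.77 and 6.88 CPM in wild-type HDM, 3.73, 6.06, 4.14, 3.74 and 4.24 CPM in knockout-labelled saline and 7.53, 6.87, 7.73, 5.51 and 7.87 CPM in knockout-labelled HDM. Its log2 fold change was 0.87 ± 0.17, adjusted p = 0.000853 in wild type, without overlap, and 0.70 ± 0.17, adjusted p = 0.00175 in knockout-labelled mice, where saline replicate 2 reached into the HDM range. Both changes were below 2-fold.

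Serpine2 and Serpinh1 gave no call in any comparison. Serpine2 (protease nexin-1, which inhibits thrombin and urokinase) read 77.3, 101, 87.6, 65.8 and 91.1 CPM in wild-type saline, 113, 98.3, 94.3, 75.2 and 110.0 CPM in wild-type HDM, 93.8, 99.7, 98.7, 81 and 81.9 CPM in knockout-labelled saline and 94.6, 119, 121, 108 and 95.8 CPM in knockout-labelled HDM. Its groups overlapped, with a log2 fold change of 0.22 ± 0.12, adjusted p = 0.184 in wild type and 0.24 ± 0.12, adjusted p = 0.0960 in knockout-labelled mice. Serpinh1 read 186, 214, 259, 211 and 224 CPM in wild-type saline, 196, 207, 155, 174 and 215 CPM in wild-type HDM, 205, 172, 234, 179 and 209 CPM in knockout-labelled saline and 148, 212, 220.0, 205 and 150.0 CPM in knockout-labelled HDM. The groups overlapped throughout, with values of -0.21 ± 0.13, adjusted p = 0.235 and -0.09 ± 0.13, adjusted p = 0.562.

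Serpinf1 (PEDF, a secreted member that inhibits no protease) read 9.39, 41.2, 19, 20.4 and 17 CPM in wild-type saline, 8.47, 19.1, 8.16, 19.2 and 8.71 CPM in wild-type HDM, 15.2, 16, 19.9, 15.5 and 16.3 CPM in knockout-labelled saline and 8.65, 11.4, 10.2, 10.5 and 23.1 CPM in knockout-labelled HDM. It gave no call in wild type (-0.75 ± 0.35, adjusted p = 0.116) or in knockout-labelled mice (-0.38 ± 0.35, adjusted p = 0.385). The 5 libraries in which Adipoq reached 50 CPM, wild-type saline 2 and 4, wild-type HDM 2 and 4 and knockout-labelled HDM 5, held the highest Serpinf1 of their groups. Without those 5 libraries Serpinf1 was called for HDM in both genotypes.

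Serpini1 (neuroserpin, an inhibitor of tissue plasminogen activator) read 1.59, 3.47, 1.6, 3.82 and 1.18 CPM in wild-type saline, 2.84, 3.58, 3.89, 3.67 and 1.34 CPM in wild-type HDM, 1.05, 1.08, 0.968, 2.0 and 1.19 CPM in knockout-labelled saline and 4.38, 2.78, 1.99, 2.76 and 5.77 CPM in knockout-labelled HDM. It rose in knockout-labelled mice (log2 fold change 1.48 ± 0.37, adjusted p = 0.00249), with a single touching library, saline replicate 4 at 2.00 CPM against HDM replicate 3 at 1.99 CPM. In wild type the value was 0.38 ± 0.36, adjusted p = 0.456, and the test of the difference between the genotypes' responses gave an adjusted p of 0.304. The highest library, knockout-labelled HDM 5, was one of the Adipoq-rich ones, and the call in knockout-labelled mice held without them.

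The clade b serpins act mainly inside cells, and 1 of the 9 tested rose and 1 fell with HDM in wild type, and 1 rose and 3 fell in knockout-labelled mice. Over all genes 13.6% rose and 16.5% fell in wild type, and 26.2% and 25.7% in knockout-labelled mice, so these counts are near the shares over all genes. Serpinb6a, an inhibitor of cathepsin G and trypsin-like proteases, read 132, 110.0, 125, 114 and 143 CPM in wild-type saline, 123, 100, 86, 91.4 and 120.0 CPM in wild-type HDM, 136, 149, 169, 147 and 165 CPM in knockout-labelled saline and 123, 126, 118, 112 and 94.9 CPM in knockout-labelled HDM. It fell with HDM in knockout-labelled mice (log2 fold change -0.42 ± 0.11, adjusted p = 0.00282), without overlap, beside -0.26 ± 0.11, adjusted p = 0.0675 in wild type. Its neighbour Serpinb6b held 76.4 to 156 CPM over all libraries with no call.

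Serpinb9, which protects cytotoxic cells from their own granzyme B, held 135, 114, 146, 133 and 155 CPM in knockout-labelled saline and 139, 184, 229, 258 and 135 CPM in knockout-labelled HDM. Those groups overlapped. The rise was past the test (log2 fold change 0.47 ± 0.18, adjusted p = 0.0353), but not without saline replicate 2 or HDM replicate 2, 3 or 4, nor by limma voom or without both saline libraries 4. In wild type Serpinb9 read 147, 87.8, 126, 118 and 136 CPM with saline and 146, 124, 119, 86.2 and 150 CPM with HDM. There the value was 0.03 ± 0.18, adjusted p = 0.928. The granzyme gene Gzma fell in both genotypes: it had a log2 fold change of -1.06 ± 0.22 in wild type and -1.13 ± 0.22 in knockout-labelled mice (edgeR adjusted p = 0.00164 and 0.00031).

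Serpinb10 (bomapin, a serpin of blood-forming and myeloid cells) read 4.89, 3.37, 3.08, 2.85 and 2.92 CPM in wild-type saline, 2.6, 2.37, 1.94, 1.45 and 1.98 CPM in wild-type HDM, 4.07, 4.27, 3.34, 3.26 and 3.69 CPM in knockout-labelled saline and 1.65, 2.78, 1.75, 0.717 and 1.56 CPM in knockout-labelled HDM. It fell in both genotypes without overlap, with log2 fold changes of -0.72 ± 0.25, adjusted p = 0.0358 in wild type and -1.13 ± 0.25, adjusted p = 0.000955 in knockout-labelled mice. The wild-type call was lost in 7 of the 10 fits that left out 1 library of those groups (saline 1, 2 and 5, HDM 2, 3, 4 and 5; adjusted p = 0.0502 to 0.0863), in the 5 that left out a knockout-labelled saline library, and without the Adipoq-rich libraries (adjusted p = 0.131).

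Serpinb2 (PAI-2, an inhibitor of urokinase) read 0.444, 0.259, 0.532, 0.552 and 0.283 CPM in wild-type saline, 0.927, 1.98, 1.32, 0.827 and 0.99 CPM in wild-type HDM, 0.287, 0.845, 0.924, 0.391 and 2.37 CPM in knockout-labelled saline and 0.587, 0.731, 0.632, 0.551 and 0.916 CPM in knockout-labelled HDM. It rose with HDM in wild type (log2 fold change 1.53 ± 0.46, adjusted p = 0.0167), without overlap, and the call was lost without HDM replicate 2 (adjusted p = 0.0510) or without the Adipoq-rich libraries (adjusted p = 0.139). In knockout-labelled mice, whose saline replicate 5 held 2.37 CPM, the value was -0.49 ± 0.43, adjusted p = 0.358. The test of the difference between the genotypes' responses gave an adjusted p of 0.121.

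Serpinb1b fell in knockout-labelled mice (log2 fold change -0.79 ± 0.26, adjusted p = 0.0158, lost without saline replicate 4). Serpinb1a, an inhibitor of neutrophil elastase, cathepsin G and proteinase 3, gave no call, with values of 0.41 ± 0.24, adjusted p = 0.222 in wild type and 0.55 ± 0.24, adjusted p = 0.0651 in knockout-labelled mice. A list of 11 neutrophil genes summed to a median of 231 CPM in wild-type saline, 827 in wild-type HDM, 398 in knockout-labelled saline and 1322 in knockout-labelled HDM. Of the 10 tested genes of that list, 2 were higher in wild type and 4 in knockout-labelled mice, with median log2 fold changes of 0.12 and 0.40. Over all genes 13.6% and 26.2% were higher, so these counts are not far from the shares over all genes. Serpinb8, an inhibitor of furin, held 13.2 to 19.4 CPM over all libraries, and Serpinb9b 0.311 to 1.40 CPM, both without a call.

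The untested clade b members included genes of stratified epithelium. Serpinb5 (maspin), Serpinb11 and Serpinb12 were highest in knockout-labelled HDM replicate 5, at 1.08, 2.32 and 1.13 CPM. That library also held the most Krt5, a keratin of basal epithelium (17.2 CPM), and the highest sum of 12 squamous genes (33.1 CPM), and the part of such cells was not tested. In wild type Serpinb11 summed to 77 counts with HDM and 10 with saline. It was called higher there with no filter beyond 10 summed counts, although the groups overlapped. Serpinb12 also held 1.09 CPM in wild-type HDM replicate 4. Serpinb1c, Serpinb6c and Serpinb7 never exceeded 1.22, 0.259 and 0.155 CPM, and Serpine3 of clade e never exceeded 0.496 CPM. With no filter beyond 10 summed counts, Serpinb12 and Serpine3 were called for HDM in knockout-labelled mice.

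**Figure D5:**
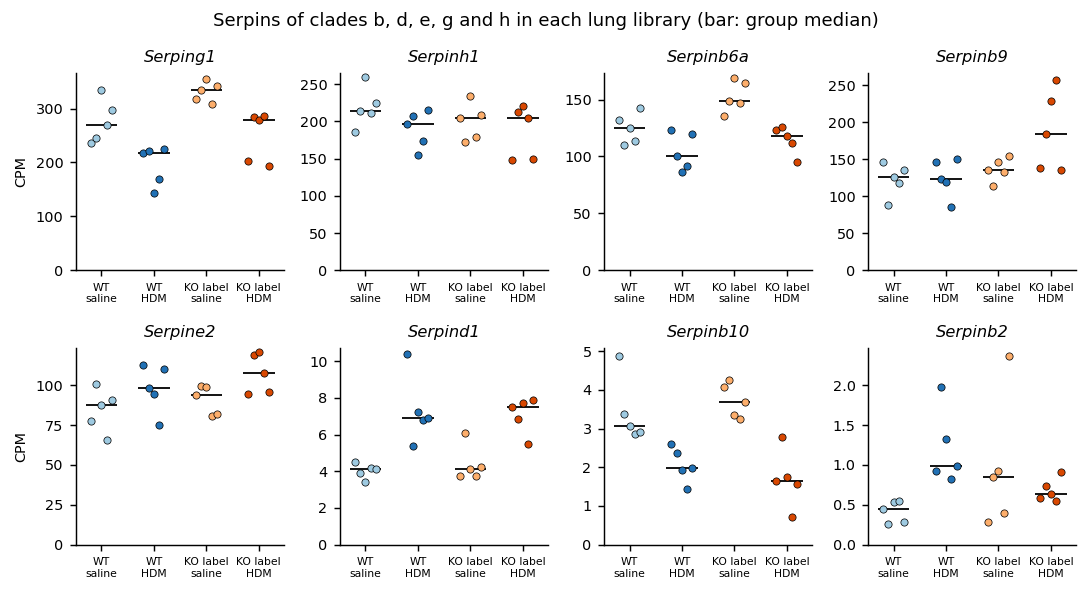
CPM of 8 serpins of clades b, d, e, g and h in each library, by group, with a bar at the group median. Serping1 and Serpinb10 are lower with HDM in both genotypes and Serpind1 is higher, while the groups of Serpinh1 and Serpine2 overlap.

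Between the genotype labels under saline, no serpin was called by edgeR. The count was 0 of 33 higher, where 0.593% of all genes were, and 0 lower, where 0.315% were, and DESeq2 and limma voom also called 0. At an unadjusted p under 0.05, edgeR gave 6 members: Serpina1a, Serpina3h, Serpina3i, Serpinb2, Serpinb6a and Serpini1. The largest of these in size was Serpinb2, with a log2 difference of 1.21 ± 0.45, adjusted p = 0.230.

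Under HDM, the knockout-labelled lungs held more Serpina1c, Serpina1d, Serpina3k and Serpinc1 than wild-type lungs, and less Serpina3c. By edgeR 4 of 33 were higher, where 4.79% of all genes were, and 1 was lower, where 1.88% were. Outside knockout-labelled HDM, Serpina1c, Serpina1d and Serpina3k held at most 0.23, 1.04 and 0.064 CPM, so they passed the expression filter through that group alone and had to differ, and their count is not read against the share over all genes. All 4 higher genes are among those that moved with albumin, described above with their values. Serpina3c had a log2 difference of -0.83 ± 0.20, adjusted p = 0.0171, lost without knockout-labelled HDM replicate 4 and with only the compared libraries. Serpina1a (1.23 ± 0.41, adjusted p = 0.0803) and Serpinb9 (0.60 ± 0.18, adjusted p = 0.0539) were not past the test. The most abundant Serpina3 genes did not differ past the test between the labels: Serpina3n had a log2 difference of -0.02 ± 0.19, adjusted p = 0.975, and Serpina3g of 0.20 ± 0.36, adjusted p = 0.797.

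The test of whether HDM acted differently in the 2 genotypes gave 2 of 33 serpins with a higher response in knockout-labelled mice, where 1.00% of all genes had one, and 0 with a lower response, where 0.235% had one. They were Serpinc1 (log2 difference 2.41 ± 0.56, adjusted p = 0.0396) and Serpina1d (10.59 ± 2.24, adjusted p = 0.0347). The Serpina1d value rests on a wild-type HDM group at 0 counts and, in wild-type saline, on 20 of 29 counts from replicate 2, so it is no measure of size. Serpina1d also passed the expression filter through knockout-labelled HDM alone, so the count of 2 is not read against the share over all genes. Leaving out single libraries ended the Serpina1d call in 10 of 20 fits (adjusted p = 0.0253 to 0.0912) and the Serpinc1 call in 12 of 20 (0.0259 to 0.0846), and both were lost without the saline libraries 4 or without the Adipoq-rich libraries.

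Protease genes, with some of their cofactors and receptors, were counted from lists chosen for their roles. These counts, and those of the other protease, inhibitor and collagen lists below, stand beside the shares over all genes. Those were 13.6% higher and 16.5% lower in wild type, and 26.2% higher and 25.7% lower in knockout-labelled mice. Of 13 cathepsins, 9 were higher and 1 lower with HDM in wild type (median log2 fold change 0.75) and 10 higher and 1 lower in knockout-labelled mice (0.61), against all-gene medians of -0.02 and 0.02. Ctss rose by 2.28 ± 0.17 and 3.39 ± 0.17 on the log2 scale and Ctsk by 2.97 ± 0.21 and 2.15 ± 0.21. Of 12 clotting and complement genes tested, 4 were higher and 2 lower in wild type and 6 higher and 3 lower in knockout-labelled mice. That list also holds F3, F5, Procr and Thbd, which are cofactors or receptors and not proteases. Factor X (F10), a target of Serpinc1 and Serpina10, rose by 2.73 ± 0.21 and 2.61 ± 0.21, and prothrombin (F2) rose by 2.36 ± 0.30 in knockout-labelled mice (edgeR adjusted p = 4.05e-06). F2 is made in the liver, and like albumin it was lowest in replicate 1 of the knockout-labelled HDM libraries (0.747 CPM, 1.54 to 1.9 in the other 4), and the part of liver RNA in its rise was not tested.

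Of 8 plasminogen activation genes, 2 were higher and 2 lower in each genotype, which in knockout-labelled mice is near the shares over all genes. Urokinase (Plau, 0.72 ± 0.19) and its receptor (Plaur, 0.64 ± 0.17) rose in wild type. In knockout-labelled mice Plaur rose as well (0.86 ± 0.17, edgeR adjusted p = 0.000407), Plau had a value of 0.37 ± 0.19 that was not past the test, and plasminogen itself (Plg, log2 fold change 4.94 ± 0.65), a liver product, rose. Of 14 epithelial and mast cell serine proteases tested, 4 were higher and 2 lower in wild type and 2 higher and 4 lower in knockout-labelled mice. The mast cell protease Mcpt1 held at most 0.0471 CPM in wild-type saline and 2.38 to 14.8 CPM in wild-type HDM, and at most 0.0957 CPM in knockout-labelled saline and 0.496 to 3.42 CPM in knockout-labelled HDM. Of 3 granule proteases tested, including Gzma and Gzmb, 0 were higher, and 2 and 3 were lower.

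Of 18 protease inhibitors outside the serpin family, 7 were higher and 5 lower with HDM in wild type (median log2 fold change 0.02) and 8 higher and 7 lower in knockout-labelled mice (0.13). The elastase inhibitor Slpi rose by 2.56 ± 0.35 and 3.4 ± 0.36 on the log2 scale and Timp1 by 3.12 ± 0.39 and 3.21 ± 0.39, while Reck had values of -1.24 ± 0.16 and -1.37 ± 0.16. Of 24 genes of collagen and its maturation, 4 were higher and 2 lower in wild type (median 0.04) and 9 higher and 5 lower in knockout-labelled mice (0.19). Col3a1 rose by 0.92 ± 0.22 and 1.81 ± 0.22, beside the collagen chaperone Serpinh1, which gave no call.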

How the data were processed

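Whole-lung RNA of 20 mouse libraries was analysed. The labels' protocols describe poly(A) selection on oligo-dT beads and dUTP marking of the strand; the strand setting of the counting is not given in the sources used here. Per the submitters' processing notes, the tools were Bowtie2 2.1.0 and RSEM 1.2.15 and the build named is hg38, a human build, although the symbols are of mouse, so the build used is not known. The authors deposited expected counts per gene, in which RSEM divides reads that match several genes. Counts were rounded, filtered with filterByExpr by group (16193 of 24054 genes kept) and scaled by TMM. Group means were fitted over all 20 libraries with edgeR 4.0.16 in R 4.3.3 (robust quasi-likelihood test, Benjamini-Hochberg over all tested genes, adjusted p under 0.05 called). Log2 fold changes are given ± standard error. CPM values are counts divided by the TMM-scaled library total, and libraries held 12573113 to 23305673 counts. A group at 0 counts was set to 3 counts over the group, and ratios with 1 to 3 counts have exact 95% intervals, both covering counting error only.

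The members, gene lists, tests and alternatives were chosen with earlier results of these data known. Values in every library are given for members called with at least a 2-fold change and a group mean of 1 CPM or more, and for the most abundant member of a clade. Other members are given by range, and 1 is not reported here. Alternatives were RLE and upper quartile factors, no filter beyond 10 summed counts, DESeq2 1.42.0, limma 3.58.1 voom, only the compared libraries, a replicate block, stricter thresholds, no Rn45s, and leaving out single libraries or those rich in Adipoq. Leaving out both saline libraries 4 was chosen after seeing the data. The scripts were tested on simulated data. Replicate pairs all differed beyond counting noise. Gene order and promoters come from RefSeq GRCm38.p6, and coding sequences from GENCODE M21.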

Additional observations from a re-analysis of the deposited data

Results flagged for a closer look

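In each group of 5, the highest or lowest library was compared with its neighbours by Dixon's ratio, for the 33 tested serpins in 4 groups. Of 132 such sets 22 had a library far from the others, or 16.7%. The ratio's chance rate of about 1 in 20 is for normally distributed values. It does not hold for counts near 0, where a set with all other libraries at 0 is always flagged. The 16.7% is therefore not read against that rate. Replicate 4 of wild-type saline and replicate 4 of knockout-labelled saline accounted for 6 each.

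In wild-type saline replicate 4, Serpina10 stood at 7.64 CPM (0.33 to 0.825 in the other 4 libraries), Serpina1b at 8.28 (0 to 0.104), Serpina1c at 0.23 (0 in the others), Serpina1e at 12.5 (0 to 0.0518), Serpina3g at 39.5 and Serpinb1a at 52 (19.8 to 28.9). In knockout-labelled saline replicate 4, Serpina10 stood at 2.35 CPM (0.365 to 0.527), Serpina1b at 2.39 (0 to 0.0479), Serpina1c at 0.13, Serpina1d at 0.435, Serpina1e at 4.96 (0 in the others for these 3) and Serpini1 at 2 (0.968 to 1.19).

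Single counts set Serpina3k apart in wild-type saline 2 (0.0518 CPM), wild-type HDM 2 (0.064) and knockout-labelled saline 3 (0.044). The remaining libraries were low for Serpina3n (knockout-labelled saline 5, 67.6 CPM) or high for Serpina7 (knockout-labelled saline 2, 0.47), Serpinb10 (wild-type saline 1, 4.89), Serpinb1a (knockout-labelled HDM 1, 65), Serpind1 (knockout-labelled saline 2, 6.06) and Serpinf1 (knockout-labelled saline 3, 19.9, and knockout-labelled HDM 5, 23.1).

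The interaction test called a different response to HDM between the genotype labels for Serpina1d (log2 difference 10.59) and Serpinc1 (2.41). The Serpina1d value rests on 0 counts in wild-type HDM and is no measure of size. Leaving out single libraries ended the Serpina1d call in 10 of 20 fits and the Serpinc1 call in 12 of 20.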

How the results depend on the processing

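No scaling alternative moved the median of all genes by over 0.1 on the log2 scale, and no fold change of a called member changed sign. Of 38 called gene results, 26 kept their call in every fit that left out 1 library, and 25 also under the other alternatives except the stricter thresholds. For HDM in wild type, 11 serpins were called, 6 at an adjusted p under 0.01, 8 with a 2-fold limit, 9 without the Adipoq-rich libraries, 13 with no filter beyond 10 counts and 16 without both saline libraries 4, where Serpina10, Serpina1b, Serpina1e, Serpinb1a and Serpinb6a were added. For HDM in knockout-labelled mice the count was 20, with 13 under a 2-fold limit, 15 at an adjusted p under 0.01, 23 with only the compared libraries, 24 without the Adipoq-rich libraries, 25 with no filter beyond 10 counts and 19 to 22 otherwise. For the genotype labels under HDM it was 5, and 8 without both saline libraries 4. For the interaction it was 2, with 5 by DESeq2, 5 by limma voom and 0 at an adjusted p under 0.01, without the Adipoq-rich libraries or without both saline libraries 4. Leaving out 1 library at a time gave 8 to 13 for HDM in wild type, 18 to 23 for HDM in knockout-labelled mice, 0 under saline, 4 to 7 under HDM and 0 to 5 for the interaction. The cause of these shifts was not tested.

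With the replicate number as a replicate block the counts were 10, 21, 0, 6 and 3, in the order wild type, knockout label, saline, HDM and interaction. The numbers were not taken to pair the samples, since the labels tie them to nothing shared and not every pair correlated over 0.1: libraries with the same number correlated from -0.50 to 0.58 over 30 pairs (median 0.14, 17 over 0.1), other pairs from -0.75 to 0.77 (median -0.08, 41 of 120 over 0.1), and 7 of 20 libraries correlated best with their own number.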
